A study of Homo sapiens with 12 samples.

Results

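Genes that encode cancer-testis antigens were followed in SCC-15 cells, an established line of human oral squamous cell carcinoma. They are MAGEA1, MAGEA3, MAGEA4, MAGEA6, MAGEA10, MAGEA12, MAGEB2, CTAG2, PRAME and SSX1, and all 10 had a row among the 61044 rows of the deposited gene table. They were picked by name with their levels in these same libraries already known, so their differences from the control hairpin are given as a description, and no test of them is used as support. The control cells carried a negative-control short hairpin RNA (NC), and the other 3 groups each carried a different short hairpin RNA against FMOD, the gene of the matrix proteoglycan fibromodulin (shRNA1, shRNA2 and shRNA3). All groups are labelled SCC-15 and were harvested after 48 hours, with 3 libraries per group and 12 in all. Whether the NC and shRNA cells are in fact the same line was not tested, and each difference from NC below is a difference between libraries so labelled. The labels do not say whether the 3 libraries of a group came from separate cultures, nor whether a hairpin line was 1 clone or a pool, so p-values measure only the spread between these libraries, which may be technical.

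Cancer-testis antigens are proteins whose genes are normally active in germ cells of the testis and silent in most other adult tissues, where methylation of promoter DNA helps to keep them off. Many tumours switch some of them on again, and peptides from them are then shown to T cells on HLA class I molecules, which has made MAGE-A proteins and PRAME targets of vaccines and engineered T cells. Most MAGE genes lie in clusters of close copies on the X chromosome. MAGE proteins bind RING-type ubiquitin ligases, for example TRIM28, and PRAME is a substrate receptor of a cullin 2 ubiquitin ligase and a repressor of retinoic acid receptor signalling.

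Library totals lay between 17286934 and 19567192 counts, and 3 counts, used as the limit of detection, corresponded to between 0.145 and 0.222 CPM (counts divided by the library size and scaled to a common total) after TMM scaling, the unit of all levels below unless another is named. FMOD itself had 2 to 3 counts in each NC library and 0 in each of the 9 shRNA libraries, so the target was at or under that limit throughout and checks the labels poorly. NC and shRNA libraries correlated at 0.829 to 0.855 across genes on the log2(CPM + 1) scale, against 0.993 to 0.994 among NC libraries, and shRNA3 libraries 1 and 2 stood apart from shRNA3 library 3, at 0.916 to 0.919. Of the 9 squamous epithelial markers examined, KRT14, KRT17 and KRT6A were higher and KRT5 and CDH1 lower with all 3 hairpins, and all 9 passed the filter on low counts. With all 3 hairpins, 16% of all tested genes were higher and 19.7% lower. Markers of fibroblasts summed to 56.7 to 59.6 CPM in NC. They summed to 15.5 to 21.0, 44.2 to 48.2 and 32.6 to 86.5 CPM in the shRNA1, shRNA2 and shRNA3 libraries (3 of 4 tested were lower with all 3 hairpins, and DCN was at 0 in NC). Endothelial markers summed to 17.6 to 23.1 CPM in NC and 3.88 to 13.2 CPM in shRNA libraries (CDH5 and VWF were lower and PECAM1 higher with all 3 hairpins), and melanocyte markers to 15 to 16.5 and 3.53 to 10.8 CPM, with TYR at 0 in the shRNA libraries. The 7 germ cell markers summed to 0.504 to 0.710 CPM in NC and 0.0496 to 0.348 CPM in shRNA libraries, and DAZL and PRM1 were at 0 in all 12. What part these differences have in the antigen levels was not tested.

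The antigens fell into 3 sets. MAGEA3, MAGEA4, MAGEA6 and PRAME were read in every NC library and were much lower with each hairpin against FMOD. MAGEA1 had no read in NC and was abundant in each shRNA library. MAGEA10, MAGEA12, MAGEB2, CTAG2 and SSX1 were at or near the limit of detection in all groups. Because these are bulk libraries, fewer cells that express a gene and less RNA per cell cannot be told apart.

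MAGEA3 and MAGEA6 are such close copies that their reads are easily mixed, so their sequences come first. The coding sequences were 942 bases each and differed at 18 positions (98.1% identity). A stretch of 60 bases that holds 4 of these differences, bases 573 to 632 of the coding sequence on GRCh38, is shown with the differing bases in capitals.
MAGEA3 (chrX:152701405-152701464, plus strand): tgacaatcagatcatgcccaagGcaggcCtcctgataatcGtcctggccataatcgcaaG
MAGEA6 (chrX:152767019-152767078, minus strand): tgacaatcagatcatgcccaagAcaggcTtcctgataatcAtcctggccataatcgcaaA

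Upstream, MAGEA3 and MAGEA6 could not be told apart at all. In RefSeq on GRCh38.p14, the 250 bases before the start of the 2 genes were identical at every base. The 192 of those bases that lie outside both gene models are printed once for the pair, 5′ to 3′, and MAGEA4 is shown beside them because it had the highest level in NC. Capitals mark CCGGAA, the core motif of ETS transcription factors, searched on both strands.
MAGEA3 (chrX:152698544-152698735, plus strand) and MAGEA6 (chrX:152769748-152769939, minus strand): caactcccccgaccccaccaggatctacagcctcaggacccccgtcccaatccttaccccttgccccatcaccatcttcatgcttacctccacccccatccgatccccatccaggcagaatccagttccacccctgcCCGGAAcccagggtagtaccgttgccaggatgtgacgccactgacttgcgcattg
MAGEA4 (chrX:151912224-151912473, plus strand): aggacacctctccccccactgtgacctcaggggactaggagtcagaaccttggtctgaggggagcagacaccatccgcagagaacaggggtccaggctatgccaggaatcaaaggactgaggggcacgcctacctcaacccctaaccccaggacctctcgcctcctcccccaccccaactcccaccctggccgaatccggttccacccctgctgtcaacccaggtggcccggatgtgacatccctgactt

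Promoter windows of the same 250 bases were found for 7 of the 10 antigens: MAGEA3, MAGEA4, MAGEA6, MAGEA12, MAGEB2, PRAME and SSX1. CCGGAA began 113 bases before the start in MAGEA3 and MAGEA6, and its reverse complement began 20 bases before the start in PRAME. The other 4 windows did not hold it, and 14.8% of all 27305 promoter windows did. The GC-box motif GGGCGG, searched on both strands, was in none of the 7 and in 42.3% of all windows. CpG dinucleotides, the sites of DNA methylation, numbered 15 in MAGEA3, MAGEA6 and MAGEB2, 9 in PRAME, 6 in MAGEA4, 5 in MAGEA12 and 3 in SSX1, against a median of 11 over all windows. CCGGAA was thus in 3 of the 4 windows of antigens read in NC, all but MAGEA4, and in 0 of the 3 others (MAGEA12, MAGEB2 and SSX1), where MAGEA3 and MAGEA6 share 1 sequence. The PRAME motif lies inside its GENCODE gene model, because only bases 250 to 97 before the RefSeq start lie outside it. MAGEA1, the antigen with the opposite pattern, had no window and is not in these counts. CpG number did not follow the level: MAGEB2, with 15 CpGs, had no NC read, whereas MAGEA4, with 6, had the most.

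MAGEA4 (ENSG00000147381, X, 151912509 to 151925170, plus strand, GRCh38 with GENCODE release 29) encodes a MAGE-A protein that is a target of engineered T-cell receptors. Its NC libraries held 4641, 5050 and 4420 counts. The shRNA1 libraries held 0, 2 and 2, the shRNA2 libraries 0, 0 and 0, and the shRNA3 libraries 0, 1 and 0. The groups did not overlap, and no shRNA library rose above the detection limit. In NC the level was 236 ± 12.3 CPM (SD, n = 3), at least 1574-, 1384- and 1199-fold above shRNA1, shRNA2 and shRNA3. Per kilobase of exon it was the highest of the 10 antigens in NC, at 76.4 ± 3.99 CPM per kb (SD, n = 3). Of its 100-base transcript windows, 97.6% were in no other gene's transcript. MAGEA4 overlaps the antisense gene MAGEA4-AS1, whose level was 9.65 ± 1.46 CPM (SD, n = 3) in NC and 0 in all shRNA libraries, and whether the counting used strand is not stated.

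MAGEA3 (ENSG00000221867, X, 152698752 to 152702347, plus strand) encodes a MAGE-A protein that partners TRIM28 in ubiquitylation and that has been tested as a cancer vaccine. Rounded counts in NC were 1981, 1949 and 1857. They were 9, 10 and 14 with shRNA1, 7, 15 and 18 with shRNA2, and 9, 0 and 9 with shRNA3. Every NC library was far above every shRNA library, and shRNA3 library 2 was the only library with no MAGEA3 count. The level was 96.6 ± 2.98 CPM in NC and 0.551 ± 0.149, 0.750 ± 0.305 and 0.371 ± 0.340 CPM in the shRNA1, shRNA2 and shRNA3 groups (SD, n = 3), that is 175-, 129- and 260-fold lower. For shRNA3 the ratio leans on that 1 empty library: it was 174-fold without library 2, and 433-fold without library 1.

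MAGEA6 (ENSG00000197172, X, 152766136 to 152769747, minus strand) encodes the near-identical partner of the MAGEA3 protein. Its NC libraries held 1771, 1789 and 1572 counts. There were 61, 52 and 75 with shRNA1, 68, 88 and 52 with shRNA2, and 27, 20 and 54 with shRNA3. MAGEA6 was the antigen of this set with the most counts left in each shRNA group, and its groups of NC and shRNA libraries did not overlap. The level was 85.7 ± 5.24 CPM in NC and 3.14 ± 0.682, 3.94 ± 1.04 and 2.05 ± 0.613 CPM in the shRNA1, shRNA2 and shRNA3 groups (SD, n = 3), which is 27.3-, 21.8- and 41.9-fold lower. Per kilobase in NC, MAGEA3 (54.1 ± 1.67 CPM per kb, range 52.6 to 55.9) was above MAGEA6 (46.0 ± 2.81 CPM per kb, range 42.8 to 48.0), and their ranges did not overlap (SD, n = 3).

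How reads were divided between MAGEA3 and MAGEA6 limits those separate values. Only 65.1% of the 100-base windows of MAGEA3 transcripts and 67% of those of MAGEA6 were in no other gene's transcript, and 34.9% of MAGEA3 windows were also in MAGEA6. The deposited estimates of the 2 genes were both fractional in most libraries, yet their sum was within 0.01 of a whole number in 11 of 12, the pattern of reads shared out between 2 genes. The summed level does not depend on that division: it was 182 ± 7.86 CPM in NC and 3.69 ± 0.815, 4.69 ± 0.998 and 2.42 ± 0.863 CPM in the shRNA1, shRNA2 and shRNA3 groups (SD, n = 3), or 49.4-, 38.9- and 75.5-fold lower.

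The division itself also differed between the groups. MAGEA3 had 52.1% to 54.2% of the pair's counts in NC, 12.9% to 16.1% with shRNA1, 9.33% to 25.7% with shRNA2 and 0% to 25% with shRNA3. In shRNA libraries these shares rest on 20 to 103 counts, against 3429 to 3752 in NC. Even so, the highest upper bound among the shRNA libraries' exact (Clopper-Pearson) 95% intervals was 42.2%, below the lowest lower bound in NC, 50.5%. These intervals cover counting error only and take the estimated division as if it had been counted. The pair was chosen with its levels known, so this is a description.

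**Figure D1:**
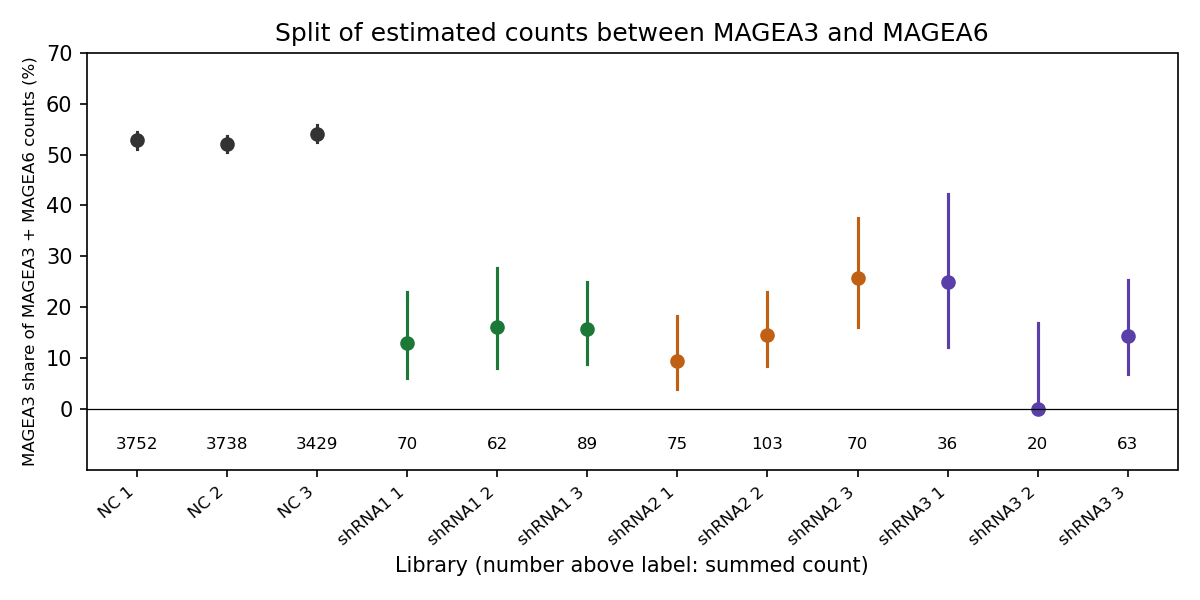
MAGEA3's share of the counts of MAGEA3 and MAGEA6 together, in percent, in each of the 12 libraries, with exact 95% intervals and the number of counts printed under each point. The 3 NC libraries sit between 52.1% and 54.2%, and all 9 shRNA libraries are at 25.7% or below with wide intervals.

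PRAME (ENSG00000185686, 22, 22547701 to 22559361, minus strand) is the 1 antigen of the 10 that does not lie on X, and all its 100-base windows were unique to it. Its NC libraries held 738, 680 and 721 counts. There were 15, 18 and 9 with shRNA1, 8, 4 and 11 with shRNA2, and 0, 0 and 7 with shRNA3. NC and shRNA libraries did not overlap, and the pair of shRNA3 libraries without a PRAME count are those that stand apart from the rest of their group. The level was 35.7 ± 2.01 CPM in NC and 0.694 ± 0.208, 0.434 ± 0.194 and 0.116 ± 0.200 CPM in the shRNA1, shRNA2 and shRNA3 groups (SD, n = 3). That is 51.5- and 82.4-fold lower for shRNA1 and shRNA2. The shRNA3 mean lies under the level of 3 counts, so its ratio of means, 309-fold lower, is imprecise. The shRNA3 ratio was 206-fold without library 1 or without library 2, and at least 162-fold without library 3. PRAME overlaps an antisense gene and strand use is not stated, although the search for unique 100-base windows covered both strands.

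MAGEA1 (ENSG00000198681, X, 153179285 to 153183880, plus strand), the founding member of the MAGE family, went the other way. All 3 NC libraries had 0 counts. There were 699, 734 and 807 counts with shRNA1, 892, 868 and 922 with shRNA2, and 637, 571 and 864 with shRNA3. All 9 shRNA libraries were far above NC, and all 100-base windows of its transcripts were unique to it. The level was 37.3 ± 3.76, 50.7 ± 1.67 and 43.9 ± 2.94 CPM in the shRNA1, shRNA2 and shRNA3 groups (SD, n = 3), at least 248-, 337- and 292-fold above NC. Per kilobase it was the highest of the 10 antigens in the shRNA groups, at 21.8 ± 2.20, 29.6 ± 0.975 and 25.7 ± 1.72 CPM per kb (SD, n = 3).

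The remaining antigens were close to the detection limit. MAGEB2, a MAGE gene of the short arm of X, had 0 counts in NC and 13, 1 and 2, then 9, 3 and 13, then 5, 3 and 4 counts in the shRNA1, shRNA2 and shRNA3 libraries, at least 1.77-, 3.14- and 1.75-fold above NC and not high enough to enter the main test. Without the filter on low counts, 6 antigens in place of 5 were called against NC with each hairpin. MAGEB2 was the only untested antigen over 3 counts in any library. SSX1, known from the SS18-SSX fusions of synovial sarcoma, and MAGEA12 had at most 2 counts in any library. MAGEA10 had at most 1, and CTAG2, the gene of the LAGE-1 antigen, had 0 in all 12. For these 4, levels up to the limit of 3 counts cannot be seen at this depth.

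**Figure D2:**
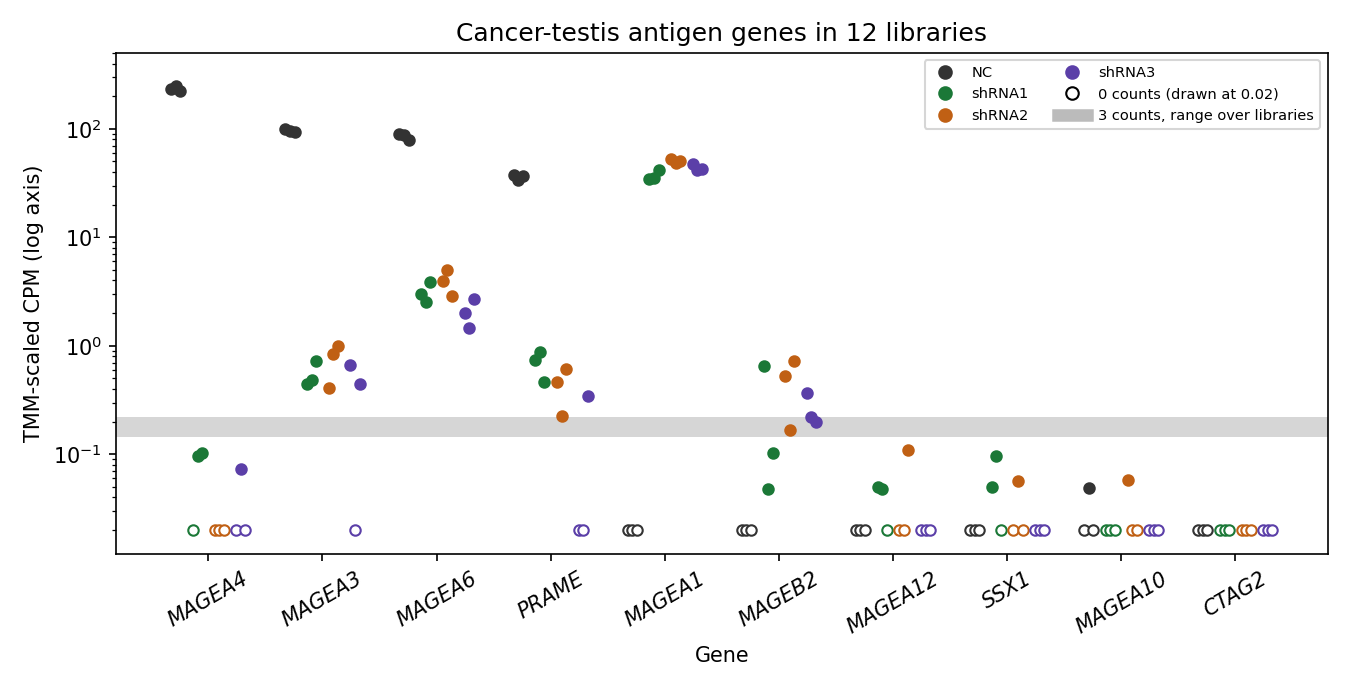
TMM-scaled CPM of the 10 antigens in each of the 12 libraries on a log axis, 1 point per library, coloured by group, with the level of 3 counts marked. MAGEA3, MAGEA4, MAGEA6 and PRAME lie high in NC only, MAGEA1 lies high in the 9 shRNA libraries only, and the other 5 lie at or near the detection limit.

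Set together, the 10 antigens summed to 434 to 466 CPM in NC, 39.7 to 46.9 with shRNA1, 55.1 to 57.6 with shRNA2 and 43.3 to 50.2 with shRNA3. The make-up of that sum changed as well as its size. MAGEA4 gave 50.8% to 53.3% of it in each NC library, whereas MAGEA1 gave 87.5% to 96.0% in each shRNA library. Of the 10 antigens, 5 entered the test across 17532 genes (edgeR quasi-likelihood, Benjamini-Hochberg adjustment over all of them), and with each hairpin 1 was called higher and 4 lower than NC. Of all tested genes, 57.4% were called for shRNA1 (26.8% higher, 30.6% lower), 53% for shRNA2 (24.6% higher, 28.4% lower) and 53.9% for shRNA3 (26.4% higher, 27.6% lower). A call in these contrasts is common, and nothing is read from the antigens' count, because they were chosen from them.

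Genes that lay on opposite sides of the limit of 3 counts in all libraries were fewer than genes called. Their shares are of genes with any count, not of tested genes, and a small difference across the limit is enough. Of 33435 genes with any count, 948 (2.84%) were over 3 counts in all 3 NC libraries and at most 3 in all 9 shRNA libraries, the pattern of MAGEA4. The opposite pattern, that of MAGEA1, was found for 254 genes (0.76%). The antigens were chosen with these levels known, and the counts only place them.

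Differences between the 3 hairpins do not use NC levels, but all 12 libraries set the filter on low counts, the scaling and the estimate of spread. They were examined in 12 comparisons, for the 4 antigens with over 3 counts in any library of each pair of groups. With only the groups compared, MAGEA3 and PRAME did not enter the test of shRNA1 or of shRNA2 against shRNA3. Of the antigens, 0 passed between shRNA1 and shRNA2, where 12.3% of all genes did; 1 passed between shRNA1 and shRNA3, against 30% of all genes; and 0 passed between shRNA2 and shRNA3, against 8.34% (edgeR quasi-likelihood, adjusted p under 0.05). By unadjusted p under 0.05 these counts were 2 (MAGEA1, and MAGEA4, which was under the limit in both groups), 2 and 1, and the DESeq2 Wald test called 1, 1 and 1. The antigen that passed was PRAME, higher with shRNA1 than shRNA3 by 2.25 ± 0.73 (log2 ± SE, edgeR adjusted p = 0.0400). That call rests on shRNA3 libraries 1 and 2, which had no PRAME count: without them the difference was 0.98 (edgeR adjusted p = 0.285), and without library 3, where shRNA3 was at 0, it was at least 3.15-fold. Over 18 alternatives the adjusted p ran from 0.000116 to 0.285 and the call was lost in 13, among them the fit with the replicate number as a block (adjusted p = 0.0548).

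MAGEA1 was lower with shRNA1 than with shRNA2 in every pairing of libraries, by 0.44 ± 0.14 (log2 ± SE), but this missed the threshold (edgeR adjusted p = 0.0731). It passed in 5 of 19 alternatives: without shRNA3 library 3 (adjusted p = 0.00654), with the DESeq2 Wald test (adjusted p = 0.00716), without shRNA3 libraries 1 and 2 (adjusted p = 0.00970), with only the groups compared (adjusted p = 0.0111) and without shRNA1 library 3 (adjusted p = 0.0398). Its adjusted p ran from 0.00654 to 0.249. The place of shRNA3 depended on scaling. With library totals in place of TMM, MAGEA1 stood at 38.8 ± 3.64, 50.9 ± 0.856 and 38.3 ± 6.49 CPM (SD, n = 3) in the shRNA1, shRNA2 and shRNA3 groups, and the difference between shRNA1 and shRNA3 turned from -0.23 to 0.02 (log2; edgeR adjusted p = 0.223 and 0.965). That scaling moved the median of all genes by 0.21 in the same contrast.

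**Figure D3:**
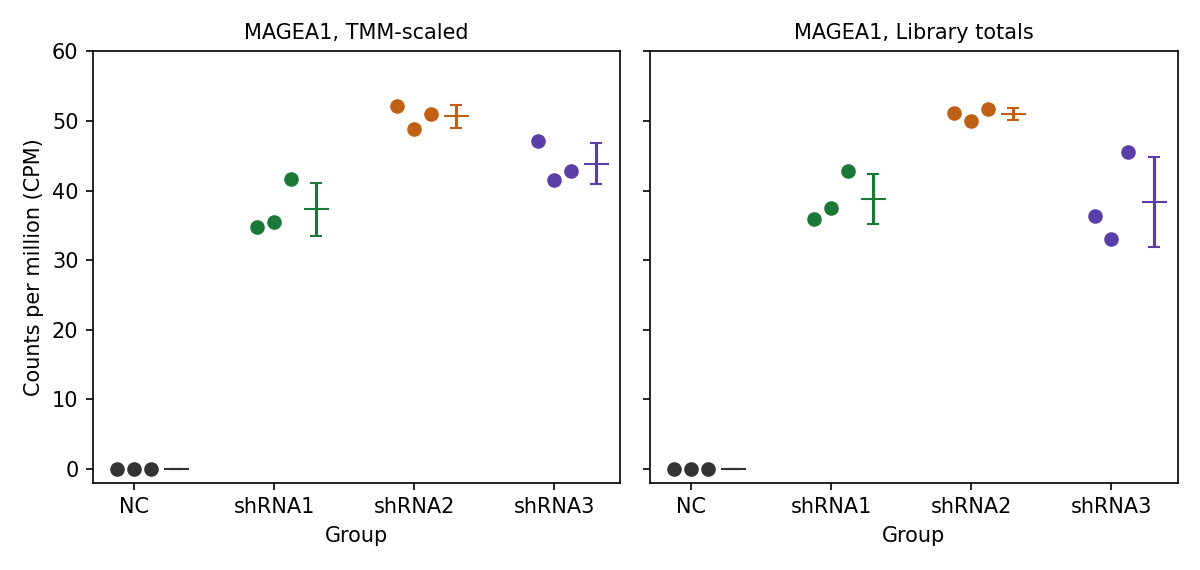
MAGEA1 in CPM per library in the shRNA1, shRNA2 and shRNA3 groups, scaled by TMM and by library totals alone (points: libraries, bars: mean ± SD, n = 3). The shRNA2 libraries stay near 50.7 and 50.9 CPM, while the shRNA3 mean moves from 43.9 to 38.3 CPM, the level of shRNA1.

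MAGEA6 was higher with shRNA2 than with shRNA3 by 0.93 ± 0.27 (log2 ± SE; edgeR adjusted p = 0.0543), which also missed the threshold. It passed with the DESeq2 Wald test (adjusted p = 0.0156) and without shRNA3 library 3 (adjusted p = 0.00164), and ran up to 0.393 over 19 alternatives. The residual MAGEA3 counts did not pass in any pair (edgeR adjusted p = 0.633, 0.513 and 0.261), with SEs of 0.54 to 0.61 on the log2 scale. At 0 to 18 counts per library, differences of that size cannot be seen.

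Genes that lie within 100 kb of the antigens were also read, a window set after levels had been seen. Beside MAGEA3, both tested neighbours fell with all 3 hairpins, where 19.7% of all tested genes were lower and 16% higher with all 3. CSAG3, itself a cancer-testis gene of the same cluster, stood at 2.62 ± 0.383 CPM in NC and 0.300, 0.130 and 0.0485 CPM in the shRNA1, shRNA2 and shRNA3 groups (largest edgeR adjusted p = 0.00391). GABRQ, a GABA-A receptor subunit, stood at 2.72 ± 0.195 CPM in NC and 0.180, 0.0578 and 0.0247 CPM (largest edgeR adjusted p = 0.00116; SD, n = 3). Near MAGEA4, the antisense gene MAGEA4-AS1 fell from 9.65 CPM to 0 with all 3 hairpins (largest edgeR adjusted p = 9.44e-05). MAGEA4-AS1 overlaps MAGEA4, and without stated strand use its counts may hold MAGEA4 reads. The other tested neighbours on X did not fall. NSDHL, an enzyme of cholesterol synthesis near MAGEA6, rose from 17.2 ± 0.305 CPM to 44.6, 30.7 and 30.1 CPM (largest edgeR adjusted p = 0.000457). CETN2, a centriole protein gene, was at 26.5 CPM in NC and 26.3, 31.0 and 33.8 CPM with the hairpins and did not pass (smallest edgeR adjusted p = 0.0626). GABRE, near MAGEA4, went from 6.66 CPM to 8.66, 9.62 and 8.89 CPM and did not pass either (smallest edgeR adjusted p = 0.0560). The 1 tested neighbour of PRAME, ZNF280B, a zinc finger gene, rose from 0.0169 CPM to 2.20, 1.70 and 0.942 CPM (largest edgeR adjusted p = 0.0116), with an SD of 1.51 CPM over the shRNA3 libraries. None of the 5 neighbours of MAGEA1 had enough counts to be tested.

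Most other cancer-testis genes were at or under the detection limit. A list of 112 that are not among the 10 had rows for 111, of which 36 were at 0 in all libraries, 65 had at most 3 counts in any library and 27 entered the test. With shRNA1 9 were higher and 9 lower than NC, with shRNA2 9 and 8, and with shRNA3 10 and 8. Their median log2 change was 0.61, 0.03 and 0.34, against -0.02, -0.05 and -0.03 over all tested genes. With all 3 hairpins 6 of the 27 were higher and 6 lower, where 16% and 19.7% of all tested genes were. The number called for shRNA1 changed from 18 to 30 without shRNA3 library 3 and to 29 without libraries 1 and 2, and for shRNA2 from 17 to 26 without library 3.

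Those that rose with all 3 hairpins were CEP55, CT83, LY6K, PBK, SPA17 and SPANXB1. LY6K, a surface protein of the LY6 family, had 424 to 463 counts in NC and 2345 to 3579 in shRNA libraries, a rise of 7.69-, 7.44- and 7.86-fold in the shRNA1, shRNA2 and shRNA3 groups (largest edgeR adjusted p = 3.46e-08). CEP55, a protein of the midbody in cell division, rose 2.21-, 1.96- and 1.49-fold (largest edgeR adjusted p = 0.0107), and its shRNA3 counts ranged from 844 to 1821 against 914 to 1070 in NC. PBK, a mitotic kinase, rose 2.16-, 2.73- and 2.87-fold, and SPA17, a sperm surface protein, rose 2.45-, 2.64- and 2.24-fold (largest edgeR adjusted p = 2.83e-05 and 0.00174). CT83, a small antigen gene on X, repeated the pattern of MAGEA1 at a lower level: it had 0 counts in NC and 27 to 76 in each shRNA library, at least 15.1-, 11.7- and 26.5-fold higher. SPANXB1, from the SPANX family of sperm proteins on X, had at most 1 count in NC and 14 to 55 in shRNA libraries, at least 14.9-, 7.80- and 15.4-fold higher.

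Those that fell with all 3 hairpins were CABYR, CSAG3, DDX43, DKKL1, MAEL and ROPN1B. DDX43, a germ cell RNA helicase, had 111 to 145 counts in NC and at most 1 in any shRNA library, at least 43.0-, 37.8- and 32.8-fold lower in the shRNA1, shRNA2 and shRNA3 groups (largest edgeR adjusted p = 7.35e-05). CABYR, a calcium-binding protein of the sperm tail, had 53 to 68 counts in NC and at most 1 elsewhere, at least 21.0-, 18.4- and 16.0-fold lower (largest edgeR adjusted p = 2.98e-05). In this list 5 genes were over 3 counts in NC only (DDX43, MAEL, PIWIL4, CABYR and TEX15) and 2 in shRNA libraries only (CT83 and SPANXB1), of 75 with any count.

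**Figure D4:**
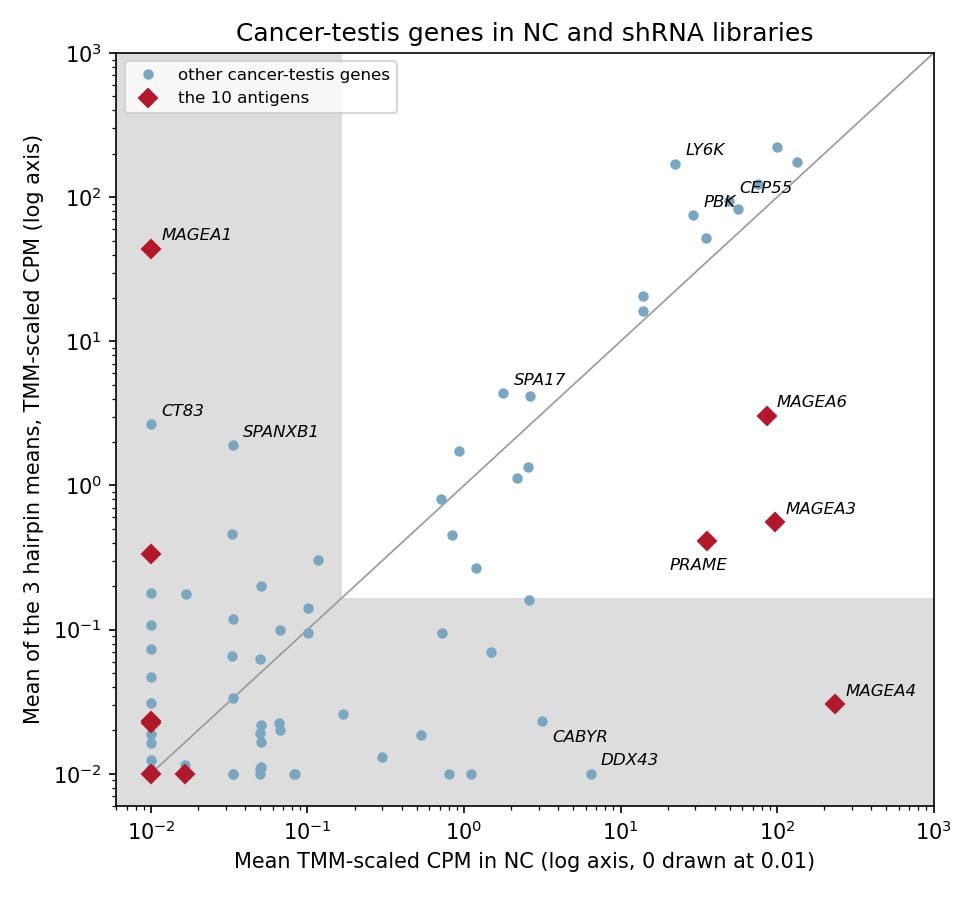
Mean TMM-scaled CPM in NC (horizontal) and over the 3 hairpin groups (vertical), both log axes with 0 drawn at 0.01, for the 10 antigens (diamonds) and the other cancer-testis genes (dots). The grey zones are under the level of 3 counts, MAGEA1 lies in the upper left with CT83 and SPANXB1, and MAGEA4 lies at the lower right.

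MAGE genes that are active in many normal tissues were examined as a list of 11, of which 4 entered the test. With shRNA1 0 were higher and 3 lower than NC, with shRNA2 0 and 2, and with shRNA3 0 and 3. Of all tested genes, 30.6%, 28.4% and 27.6% were lower, and 4 genes are too few to set against those shares. MAGEE1 had 163 to 207 counts in NC and at most 1 in any shRNA library, at least 59.8-, 52.6- and 45.6-fold lower in the shRNA1, shRNA2 and shRNA3 groups (largest edgeR adjusted p = 3.04e-05). MAGED2, which regulates renal salt transport and is widely expressed, fell 1.66-, 2.17- and 1.44-fold from 89.4 ± 9.87 CPM (SD, n = 3; largest edgeR adjusted p = 0.00956).

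Of 25 genes that write, read or erase DNA methylation and repressive chromatin, 23 were tested. With shRNA1 11 were higher and 3 lower than NC, with shRNA2 12 and 4, and with shRNA3 8 and 2. Of all tested genes, 26.8%, 24.6% and 26.4% were higher and 30.6%, 28.4% and 27.6% lower. The list's median log2 change was 0.53, 0.77 and 0.45, against -0.02, -0.05 and -0.03 over all tested genes. With library totals in place of TMM no called gene changed its direction, but the counts became 8 and 3, 8 and 6, and 6 and 4. DNMT1, the maintenance DNA methyltransferase, rose from 116 ± 4.71 CPM to 285 ± 28.7, 370 ± 2.20 and 297 ± 61.0 CPM (SD, n = 3; largest edgeR adjusted p = 3.10e-05). UHRF1, which guides DNMT1 to replicated DNA, rose 4.87-, 5.00- and 4.31-fold, and DNMT3B, a de novo DNA methyltransferase, rose 3.38-, 3.41- and 4.09-fold (largest edgeR adjusted p = 1.75e-05 and 3.27e-06). EHMT2, a histone H3 lysine methyltransferase, rose 3.39-, 2.69- and 2.74-fold (largest edgeR adjusted p = 0.000187). Counts in shRNA3 ranged from 2034 to 5525 for UHRF1 and from 1332 to 3363 for EHMT2. NC libraries held 780 to 1100 and 847 to 984.

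Not all of that list was higher. TET1, which oxidises methylated cytosine, had 35 to 57 counts in NC and 0 to 12 in shRNA libraries, 12.8-, 6.32- and 20.6-fold lower (largest edgeR adjusted p = 0.0115). DNMT3A, the other de novo methyltransferase, fell 1.56- and 1.66-fold with shRNA1 and shRNA2, and its 1.48-fold lower level with shRNA3 did not pass (edgeR adjusted p = 0.0404, 0.0241 and 0.0667). CTCFL, a testis factor known to bind cancer-testis promoters, had at most 4 counts in any library. DNA methylation itself was not measured in these samples, so whether the antigens' promoters changed was not tested.

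Among 13 genes for partners of MAGE-A proteins and PRAME, all tested, 4 were higher and 1 lower with shRNA1, 4 and 1 with shRNA2, and 6 and 2 with shRNA3. For shRNA1 and shRNA2 that number higher is near the share of all tested genes, 26.8% and 24.6%, and for shRNA3 the share was 26.4%. The partners' median log2 change was 0.44, 0.57 and 0.59, against -0.02, -0.05 and -0.03 over all tested genes. TRIM28, the ubiquitin ligase partner of MAGEA3 and MAGEA6, rose 1.82-, 2.73- and 1.97-fold from 324 ± 15.4 CPM (SD, n = 3; largest edgeR adjusted p = 0.00348), although the shRNA3 libraries ranged from 6880 to 17962 counts. EZH2, a histone methyltransferase recruited by PRAME to retinoic acid receptor targets, rose 2.63-, 2.82- and 2.28-fold (largest edgeR adjusted p = 0.000162). Its shRNA3 counts ranged from 649 to 1478, against 444 to 537 in NC. USP7, a deubiquitylase, rose 2.66-, 2.50- and 1.63-fold (largest edgeR adjusted p = 0.0396). Its shRNA3 libraries spread from 98.6 to 225 CPM (1354 to 4533 counts), against 85.4 to 90.7 CPM (1693 to 1789 counts) in NC. With library totals the partners' counts became 4 and 1, 5 and 0, and 3 and 2, with no called gene changing its direction.

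The gene whose log2(CPM + 1) was most like each antigen's across the 12 libraries was also sought. It was PEG10, an imprinted retrotransposon-derived gene, for MAGEA1 (Pearson r = 0.998), ROBO1, an axon guidance receptor, for MAGEA3 (r = 0.998), and GLUL, glutamine synthetase, for MAGEA4 (r = 0.9999). It was STAT5A, a signalling transcription factor, for MAGEA6 (r = 0.996), and GATM, an enzyme of creatine synthesis, for PRAME (r = 0.997). These values are a description: the 12 points share the split between NC and shRNA libraries, and 44, 443, 591, 20 and 280 genes had an r over 0.99 with MAGEA1, MAGEA3, MAGEA4, MAGEA6 and PRAME. GLUL, for example, had 3454 to 3532 counts in NC and at most 2 in any shRNA library, while PEG10 had 0 in NC and 559 to 1190 in shRNA libraries.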

How the data were processed

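RNA of SCC-15 cells was sequenced on an Illumina HiSeq from NEBNext Ultra libraries, per the labels' protocols and the series' design text. The authors deposited 1 gene table whose values are each an estimated count of reads, with no scaling to depth. HISAT2, HTSeq 0.11.2 and GRCh38 are named in the submitters' processing notes, but 13.8% of values are not whole, so how reads were shared out is not stated; annotation, strand use and filters are not given in the sources used here. Columns were matched to samples by title.

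Estimates were rounded. edgeR 4.0.16 (R 4.3.3, limma 3.58.1) with TMM scaling (factors 0.771 to 1.11), filterByExpr and a robust quasi-likelihood fit of the 4 groups over all 12 libraries tested 17532 genes two-sided (8 residual degrees of freedom), with Benjamini-Hochberg adjustment over all and a threshold of 0.05. A log2 change's SE is its size over the root of the F statistic. The scripts were tested on simulated counts. Folds are ratios of mean CPM; where a group had at most 3 counts in every library, 3 counts per library stood in, giving a lower bound. Reads carried no molecular identifiers and are not independent molecules, so floors and intervals allow for counting error alone. Unique windows were counted among GENCODE 29 transcripts, not the genome. Promoters are from RefSeq.

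The antigens and all lists were chosen with earlier results of these data known. Named were all 10 antigens; FMOD; for each antigen with a mean of at least 1 CPM, the tested gene with the highest r; of the other cancer-testis genes, up to 8 called with all 3 hairpins in 1 direction, by mean CPM; of 3 further lists, up to 4 such genes by size of change; and DNMT1, DNMT3A, DNMT3B, UHRF1 and CTCFL. Neighbours of the antigens, MAEL, PIWIL4, TEX15, DKKL1, ROPN1B and the markers named in the report fall outside that rule and were chosen after values were seen. Replicate numbers are shared across groups in the titles. Alternatives were a replicate block, DESeq2 (1.42.0) size factors and Wald test, no filter, only the groups compared, each library left out, shRNA3 libraries 1 and 2 left out and other window lengths; library totals without TMM were added after seeing the data. The immune marker list is not reported here.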

Additional observations from a re-analysis of the deposited data

How the results depend on the processing

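The differences from NC of the 5 antigens tested kept their direction and call in 285 of 285 cases, with each antigen, hairpin and alternative counted. The choice of the antigens from these contrasts fixes that, and it is no sign of stability. The number of antigens called against NC was 6 in place of 5 with no filter, for each hairpin, and 5 to 6 when single libraries were left out. Between hairpins, 200 of 224 differences kept both. The number of antigens called between shRNA1 and shRNA2 was 1 in place of 0 with only the groups compared, without shRNA3 libraries 1 and 2 and with the DESeq2 Wald test, and 0 to 1 with single libraries left out. Between shRNA1 and shRNA3 it was 0 in place of 1 with the replicate block and with library totals, and 0 to 2 with single libraries left out. It was also 0 with only the groups compared, where PRAME did not pass the filter and was not tested. Between shRNA2 and shRNA3 it was 1 in place of 0 with the DESeq2 Wald test, and 0 to 2 with single libraries left out; the cause was not tested. Reversed were MAGEA3 between shRNA1 and shRNA3 without shRNA3 replicate 2 (-0.0137, log2, with single libraries left out up to 1.05) and MAGEA1 between them with library totals (0.0163). The other cancer-testis genes called numbered 29 for shRNA1 without shRNA3 libraries 1 and 2, and 13 to 30, 15 to 26 and 15 to 25 for the 3 hairpins with single libraries left out. Same-numbered libraries of different groups did not move together on average (mean r of deviations -0.0107 over 18 pairs, 0.00443 over 36 pairs with different numbers). No pairing by number was seen, but 3 libraries per group cannot exclude it. The block changed no other count of calls by over 1.5 times.

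Spearman's rho in place of Pearson's r was 0.950 for MAGEA1 and PEG10, 0.813 for MAGEA3 and ROBO1, 0.932 for MAGEA4 and GLUL, 0.860 for MAGEA6 and STAT5A and 0.910 for PRAME and GATM. By rho, none of these genes was the most like its antigen. TREX1, ATP6V1FNB, PIK3CD-AS2, IGF2R and ENDOV took that place for MAGEA1, MAGEA3, MAGEA4, MAGEA6 and PRAME. The share of unique transcript windows was 43.5% and 72.9% for MAGEA3 with windows of 50 and 150 bases, 46.1% and 74.4% for MAGEA6, 92.7% and 99.7% for MAGEA4, and 99.3% with 50 bases for MAGEA1. Depth limits every statement on MAGEA10, MAGEA12, CTAG2 and SSX1 and on MAGEA4 in shRNA libraries, which lie at or under 3 counts.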
